A study of Homo sapiens with 2 samples.

Results

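The IL6 family of cytokines was examined through 10 genes of the pathway, chosen by name with earlier results of these data known. They were the ligand genes IL6, LIF and IL11 and the receptor genes IL6R, IL6ST, LIFR and OSMR. With them were the kinase gene JAK1, the transcription factor gene STAT3 and the feedback inhibitor gene SOCS3. The related lists were chosen with the same knowledge, so their shares beside those of all genes are descriptions only. All 10 were measured by probe sets that carry a single gene symbol, among 14232 genes named in this way. The samples came from J82, an established human bladder cancer cell line grown in DMEM with fetal bovine serum and given no treatment according to the labels. Cells stained with the DNA dye Hoechst were sorted by flow cytometry into a side population (SP), which keeps little of the dye, and a non-side population (NSP), which retains it. Total RNA of each population was hybridised to 1 human exon array, so both groups share the cell line, medium and stain and differ in the sorting gate. Neither population has a replicate. No p-value or error over samples can therefore be given, and whether it exceeds the spread between sorts cannot be determined from these 2 arrays.

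Cytokines of this family bind a receptor complex that contains IL6ST (gp130) and activate the JAK kinases attached to it, which phosphorylate STAT3. Phosphorylated STAT3 enters the nucleus and induces target genes, among them SOCS3, whose product binds the receptor and JAK and shuts the signal off. Activity of the pathway is read from phosphorylation, which an expression array does not measure. In carcinoma cells IL6 and LIF are commonly secreted and act on the same cells or on their neighbours.

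Values are log2 signals from robust multi-array averaging (RMA), a method that removes background, equalises the arrays and summarises the probes of each set. A difference is the SP value minus the NSP value, and a fold is 2 to the power of its size. The median of all values, 7.44, served as a floor, and a gene counted as measured above it when its higher value reached that level. Of the 14232 genes, 7549 did so. Their median difference was -0.05, with a central 95% between -0.51 and 0.63. Of the 11 epithelial and urothelial markers 8 were higher and 2 lower in SP, beside 49.2% of all genes higher, and 5 reached the floor. Among these KRT8 had 13.18 in SP and 12.77 in NSP, and PPARG had 9.20 in SP and 8.50 in NSP (1.62-fold). EPCAM (4.42 in each), CDH1, GATA3 and the 3 uroplakin genes measured lay under the floor. All 4 mesenchymal markers reached it. The pan-leukocyte gene PTPRC lay at 3.74 in SP and 3.80 in NSP, and 2 of 8 measured leukocyte markers (CD14 and CD68) reached the floor. Of the efflux transporter genes tied to dye exclusion, ABCB1 differed by 0.70 and ABCG2, under the floor, by 0.45.

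Across the family, 9 of 10 genes had a higher value in SP (median difference 0.27), and the oncostatin M receptor gene OSMR was the exception. Among all 14232 genes 49.2% were higher in SP by any margin, and their median difference was 0.00. Of the 9 family genes that reached the floor 8 were higher in SP, against 40.1% of the 7549 genes there. SOCS3 reached the floor in SP only. With both arrays required to reach it, 7 of 8 family genes were higher in SP, against 39.2% of 6994 genes. The margins were small for all but IL6. IL6 alone reached a 1.5-fold difference among these 9 genes, and none was lower in SP by that margin. Of all genes that reached it, 3.10% were higher in SP by 1.5-fold or more and 1.43% were lower by as much. No family gene reached 2-fold as the mean of its probe sets, as 0.609% of genes did in the direction of SP. Nearest outside the threshold were LIF (1.32-fold, under the floor) and IL6ST (1.29-fold), against 1.63-fold for IL6 inside it. In RNA from sorted populations, a change in the fraction of cells that express a gene and a change in RNA per cell cannot be told apart.

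**Figure D1:**
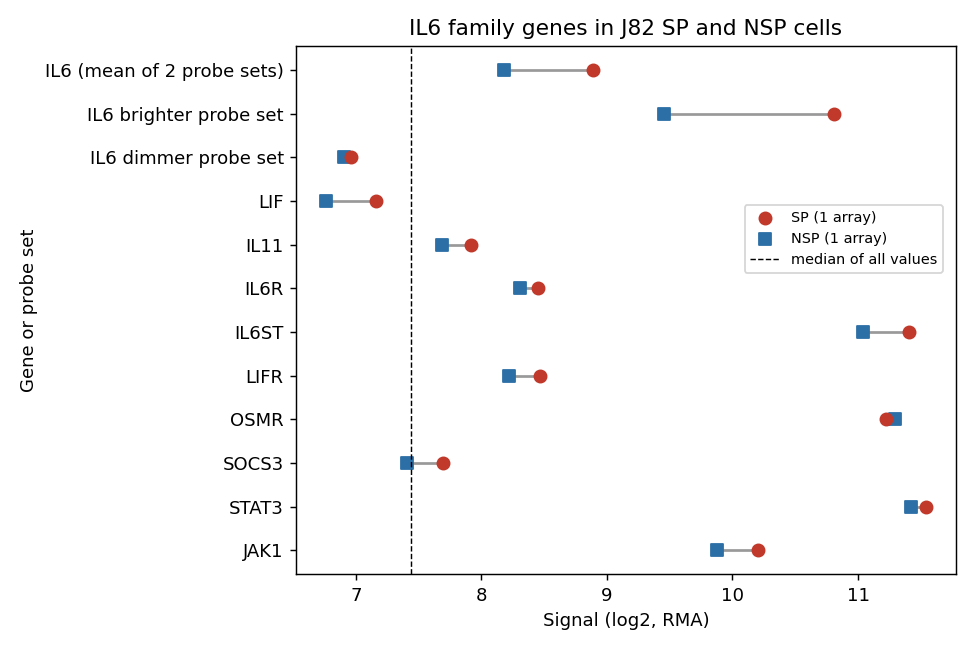
Log2 signal (x axis) of each IL6 family gene in SP (circles) and NSP (squares), 1 array each, with IL6 shown as the mean of its 2 probe sets and by each probe set. The dashed line marks the median of all values (7.44). Only OSMR has its SP value below its NSP value, and the brighter IL6 probe set has the widest gap (10.81 in SP and 9.46 in NSP).

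The ligand gene IL6 encodes interleukin 6, an inflammatory cytokine made by many epithelial tumour lines. As the mean of its 2 probe sets, IL6 had a log2 signal of 8.89 in SP and 8.18 in NSP, a difference of 0.71. This was the largest difference in the family and ranked 153 from the top among 7549 genes. The probe sets behind the mean disagreed. The brighter probe set (2992576) had 10.81 in SP and 9.46 in NSP, a difference of 1.35 or 2.55-fold. The dimmer probe set (3041244) lay under the floor on both arrays, at 6.96 in SP and 6.90 in NSP, with a difference of 0.06. Of 197 genes with several probe sets only 4, IL6 included, had a gap in difference as wide as the 1.29 of IL6, and the median gap was 0.20.

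The 2 IL6 probe sets stand in different parts of the array's ID order. To place them, the strands of the genes at neighbouring IDs were looked up in RefSeq. For the brighter set, 17 of the 20 nearest single-symbol probe sets had a gene with a known strand, and all 17 lay on chromosome 7 on the strand of IL6, SP4 and KLHL7 being the closest. For the dimmer set 17 of 20 likewise had one, and all 17 lay on chromosome 7 on the opposite strand, with RAPGEF5 and HYCC1 closest. RefSeq lists an antisense gene, IL6-AS1, that overlaps IL6 on that opposite strand. The transcript measured by the dimmer probe set was not tested. With the brightest probe set used for every gene, IL6 ranked 12 of 7587 genes that reached the floor, of which 0.633% had an SP value 2-fold or more above NSP.

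LIF encodes leukemia inhibitory factor, which signals through LIFR and IL6ST. Its log2 signal was 7.16 in SP and 6.76 in NSP, both under the floor, and the difference of 0.40 is that of a dim probe set. IL11 encodes interleukin 11, which signals through IL11RA and IL6ST. Its log2 signal was 7.92 in SP and 7.69 in NSP, a difference of 0.23 or 1.17-fold, and 12.8% of genes that reached the floor had a larger value of SP minus NSP. The 3 ligand genes were thus all higher in SP, with differences between 0.23 and 0.71.

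**Figure D2:**
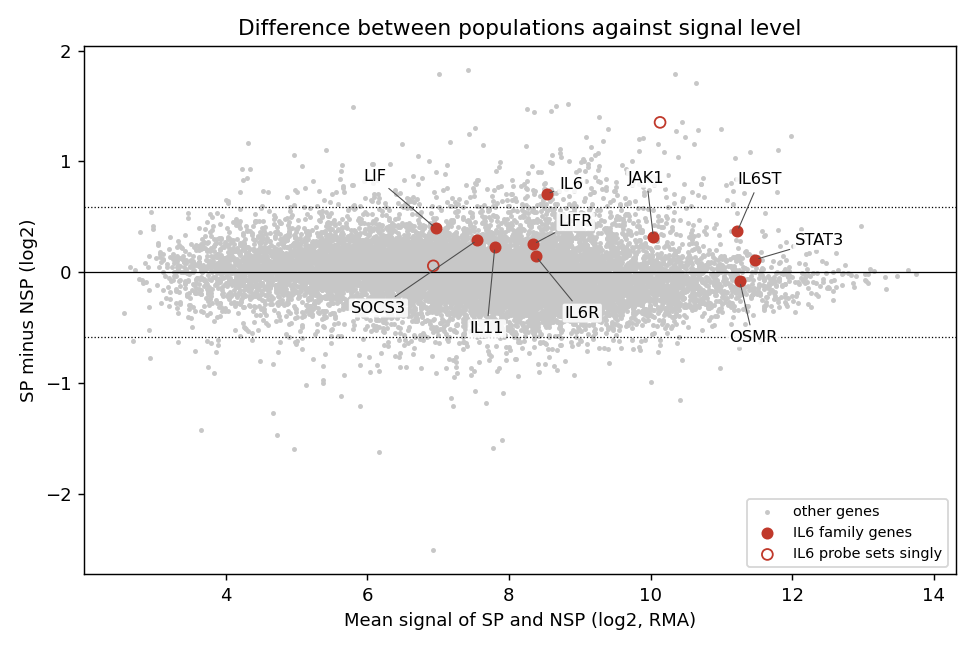
Difference SP minus NSP (y axis, log2) against the mean log2 signal (x axis) for 14232 genes, with the IL6 family genes filled and the 2 IL6 probe sets as open circles. Dotted lines mark 1.5-fold. IL6 at 0.71 is the only family gene beyond them, and its brighter probe set stands at 1.35.

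RefSeq promoters of the ligand genes that reached the floor are shown because inflammatory transcription factors are known to act on both. The 250 bases before the annotated start were searched on both strands for an NF-kB consensus of 10 letters with 1 of them free, and for AP-1 (TGANTCA), CRE (TGACGTCA) and STAT (TTCNNNGAA) letters, and matches are in capitals.
IL6 promoter, GRCh38.p14 chr7:22726950-22727199, plus strand: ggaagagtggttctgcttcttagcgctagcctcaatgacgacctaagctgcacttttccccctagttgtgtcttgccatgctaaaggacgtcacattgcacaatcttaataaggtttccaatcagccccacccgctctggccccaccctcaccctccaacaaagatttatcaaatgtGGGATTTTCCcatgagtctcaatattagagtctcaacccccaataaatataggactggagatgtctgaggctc
IL11 promoter, GRCh38.p14 chr19:55370464-55370713, minus strand: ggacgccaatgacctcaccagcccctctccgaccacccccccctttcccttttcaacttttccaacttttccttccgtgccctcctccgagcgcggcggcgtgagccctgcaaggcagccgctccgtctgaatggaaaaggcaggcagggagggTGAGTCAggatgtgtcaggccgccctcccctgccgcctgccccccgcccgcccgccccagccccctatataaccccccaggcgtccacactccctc
The IL6 window held 1 match, the NF-kB letters GGGATTTTCC at 73 to 64 bases before the start, and 0.527% of 35116 RefSeq promoters held that motif. The IL11 window held 1 match, the AP-1 letters TGAGTCA at 96 to 90 bases before the start, a motif found in 6.573% of promoters. Promoters were available for 9 of the 10 genes, 14 in all because JAK1, LIFR and SOCS3 have several. Of the others, 2 of the 3 LIFR promoters held the STAT letters, which 6.567% of promoters held. The SOCS3 windows held none of the 4 motifs, which says only that these letters are not in those 250 bases. A match is not evidence of binding, and no binding was measured.

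Among the receptor genes, IL6ST, the signal-transducing chain shared by the family, had the largest difference. Its log2 signal was 11.41 in SP and 11.04 in NSP, a difference of 0.37 or 1.29-fold. Of genes that reached the floor, 6.95% had a larger value of SP minus NSP. LIFR, the partner chain of IL6ST for LIF, had 8.47 in SP and 8.22 in NSP, a difference of 0.25. IL6R, the chain that binds interleukin 6 itself, had 8.45 in SP and 8.30 in NSP, a difference of 0.15. OSMR, the partner chain of IL6ST for oncostatin M, had 11.22 in SP and 11.30 in NSP. Its difference of -0.08 was close to the median of all genes that reached the floor (-0.05), and it became 0.0045 after a trend of the difference on signal level was removed. All 4 receptor genes lay above the floor on both arrays, and their differences ran from -0.08 to 0.37.

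JAK1, the kinase most closely tied to IL6ST signalling, had a log2 signal of 10.20 in SP and 9.88 in NSP, a difference of 0.32 or 1.25-fold. STAT3, the transcription factor activated by the complex, was bright in both populations, at 11.54 in SP and 11.42 in NSP, and differed by 0.12. SOCS3, the feedback inhibitor and a direct STAT3 target, had 7.70 in SP and 7.41 in NSP, a difference of 0.29 or 1.22-fold. Its NSP value lay just under the floor and its SP value just above it. Among the 7549 genes, 8.64% had a larger value of SP minus NSP than JAK1, 9.97% than SOCS3 and 23.8% than STAT3. None of the 3 reached 1.5-fold.

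Over 2 arrays, the genes whose pattern was most like that of IL6 as the mean of its probe sets were EPC1, NCOA7 and PHLDA1, by Euclidean distance between their log2 values on SP and NSP. The distances were 0.0437, 0.0511 and 0.0596, and the differences SP minus NSP were 0.75, 0.69 and 0.75.

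Further genes of the pathway were evenly split. Of 45 further genes of gp130, JAK and STAT signalling, 31 were measured, with 15 higher and 15 lower in SP and SOCS2 identical on both arrays. Their median difference was 0.00, and 49.2% of all measured genes were higher in SP. Of the 20 that reached the floor, 2 were 1.5-fold or more higher in SP and none was lower by as much, beside 3.10% and 1.43% of all genes there. Both were inhibitors of the SOCS type. SOCS5 had 8.49 in SP and 7.88 in NSP (1.53-fold), and SOCS6 had 8.50 in SP and 7.90 in NSP (1.52-fold). Other genes of that type, named after their values were seen, were mixed. SOCS1 differed by 0.24, SOCS4 by -0.17 and CISH, under the floor, by -0.06. GAB2, an adaptor that links receptors to the SHP2 phosphatase, lay just outside the threshold at 8.66 in SP and 8.11 in NSP (1.46-fold), while the SHP2 gene PTPN11 differed by -0.25.

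The kinase genes differed in direction. TYK2, which can also associate with IL6ST, had 8.62 in SP and 8.99 in NSP, a difference of -0.37, and JAK3, under the floor, differed by 0.18. The transcription factor gene STAT6, which serves interleukin 4, differed by -0.17, and STAT4, under the floor, by 0.13. Other ligand and receptor genes were mostly dim. OSM, which encodes oncostatin M, had 6.16 in SP and 5.87 in NSP, and EBI3, a subunit of interleukin 27, differed by -0.10. The receptor genes IL27RA and IL31RA, both under the floor, differed by -0.22 and 0.17. A probe set shared by IL27RA and RLN3, named after its value was seen, entered no count. It ran the other way from IL27RA alone, with 6.77 in SP and 6.19 in NSP, also under the floor. RHBDF2, which helps mature the protease that sheds IL6R, differed by -0.01. The inhibitor gene PIAS1, named after its value was seen, shares its only probe set with 2 other genes, so its value of 10.39 in SP and 9.89 in NSP is uncertain.

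Known STAT3 target genes were higher in SP for 18 of 29 measured members, lower for 9 and identical for 2. Their median difference was 0.11. Of the 19 that reached the floor, 5 were 1.5-fold or more higher in SP, beside 3.10% of all genes there, and none was lower by as much, beside 1.43%. By any margin 49.2% of all measured genes were higher in SP. The neutrophil chemokine gene CXCL8 had 10.24 in SP and 9.23 in NSP (2.01-fold), and MYC had 11.16 in SP and 10.31 in NSP (1.80-fold). The kinase gene PIM1 had 10.59 in SP and 9.84 in NSP, VEGFA had 10.94 in SP and 10.22 in NSP, and FOS had 11.68 in SP and 10.96 in NSP. These genes are also known targets of other pathways, such as ERK and NF-kB signalling, and their dependence on STAT3 was not tested. Named after their values were seen, the survivin gene BIRC5 (-0.35) and the cyclin gene CCND1 (-0.23) ran the other way. Also named after their values were seen, the liver acute-phase genes CRP, FGA, FGB and FGG, of which the last 3 encode fibrinogen chains, lay under the floor on both arrays. The acute-phase gene HAMP, which encodes hepcidin and was named in the same way, reached it, with 8.01 in SP and 7.99 in NSP. A probe set annotated to both serum amyloid genes, SAA1 and SAA2, which entered no count, had 7.87 in SP and 9.03 in NSP, 2.24-fold lower in SP.

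**Figure D3:**
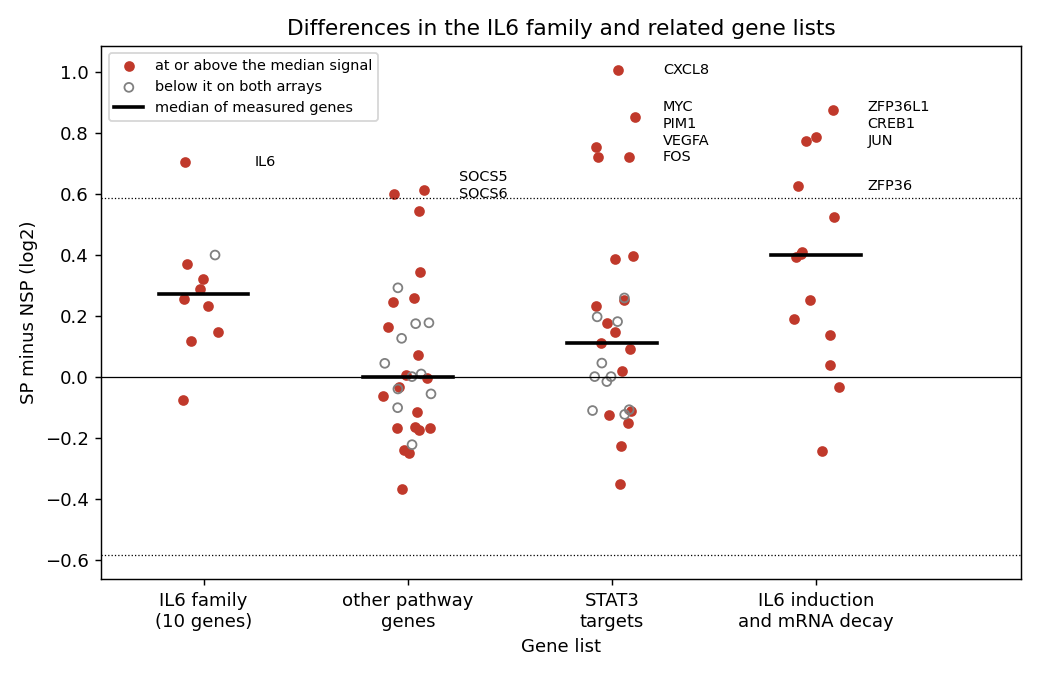
Difference SP minus NSP (y axis, log2) for the IL6 family and 3 related gene lists (x axis), with filled points for genes at or above the median signal, open points for genes under it on both arrays and bars for medians. The family median is 0.27 and that of the other pathway genes 0.00. Genes at or above the floor and beyond 1.5-fold (dotted lines) are named.

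Genes that control IL6 transcription and IL6 mRNA turnover were mostly higher in SP. All 14 that were measured reached the floor. Of these 12 were higher and 2 lower, the median difference was 0.40, and 4 passed 1.5-fold towards SP. Of all genes that reached the floor, 40.1% had the higher value in SP, and 3.10% passed 1.5-fold in that direction. Their transcription factor genes were higher in 6 of 6 cases. CREB1, which binds cyclic AMP elements, had 10.44 in SP and 9.66 in NSP (1.72-fold), and the AP-1 subunit gene JUN had 10.27 in SP and 9.50 in NSP (1.71-fold). The mRNA decay factors were also higher, in 5 of 6 cases. ZFP36L1 had 10.69 in SP and 9.82 in NSP (1.83-fold), and ZFP36, which encodes tristetraprolin, had 10.01 in SP and 9.38 in NSP (1.54-fold). Of the stabilisers of IL6 mRNA, ARID5A differed by 0.04 and ELAVL1 by -0.24.

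Fibroblasts and leukocytes also make IL6. Of the 4 measured fibroblast markers 3 reached the floor, with PDGFRB at 8.53 in SP and 7.99 in NSP, LUM at 10.74 in SP and 11.13 in NSP, and COL1A1 at 7.70 in SP and 7.53 in NSP, while DCN lay at 4.21 in SP and 4.14 in NSP. The 8 measured leukocyte markers ran from 3.74 to 9.35 in SP and from 3.80 to 9.66 in NSP, with 3 higher and 5 lower in SP. Both populations were sorted from the J82 cell line, so these are values of that culture, and whether it held any other cell type was not tested.

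**Figure D4:**
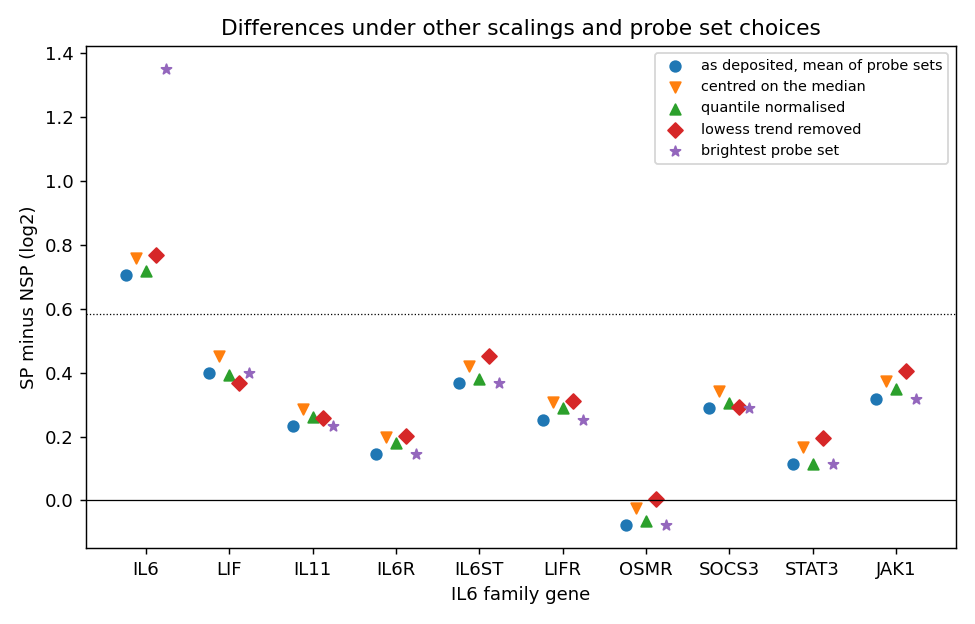
Difference SP minus NSP (y axis, log2) of each IL6 family gene (x axis) as deposited, after 3 other scalings and with the brightest probe set. The dotted line marks 1.5-fold. IL6 stays above it in every setting shown and reaches 1.35 with its brightest probe set. OSMR alone crosses 0, with the lowess trend removed.

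Under centring, quantile normalisation and removal of the trend on signal level, the differences of the 9 genes other than OSMR kept their direction. Over these settings and as deposited, IL6ST ranged from 0.37 to 0.45 and JAK1 from 0.32 to 0.40. SOCS3 ranged from 0.29 to 0.34, STAT3 from 0.11 to 0.20 and LIF from 0.37 to 0.45. The choice of probe set moved only IL6, since the other 9 genes have a single probe set.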

How the data were processed

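RNA of the SP and NSP cells was measured on 1 exon array each. The authors deposited log2 values made, per the submitters' processing notes, with RMA and Partek. Software versions, any filter and the genome build of the array were not given in the sources used here. RMA and the range of the values set the log2 scale. Of 22011 probe sets, 14432 had exactly 1 gene symbol in the platform annotation, 2408 several and 5171 none. Current symbols came from RefSeq (GRCh38.p14) by Entrez identifier for 14404 of them, and genes with several probe sets took their mean. No test was run, since each group has 1 sample. The family genes and the related lists were chosen with earlier results of these data known. Named genes were all family genes, list genes at least 1.5-fold apart at or above the floor, the largest 2 differences of each role, and the 3 genes nearest to IL6. Others are marked where they are named. Cell type marker genes and the receptor and ligand genes of other cytokines fall outside this rule. Alternatives were other floors, a 2-fold threshold, centring, quantile normalisation, removal of a lowess trend (span 0.3), the brightest probe set and the mean over members. IL6 by each probe set alone and the family median without IL6 were added after seeing the data. The counting was tested on simulated data. The table gives no detection calls, RMA shrinks differences at low signal, and the number of arrays limits the precision. Python 3.11.15, numpy 2.4.6, pandas 2.3.3, statsmodels 0.14.6 and matplotlib 3.10.9 were used.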

Additional observations from a re-analysis of the deposited data

How the results depend on the processing

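A 2-fold threshold in place of 1.5-fold lowered the counts of genes at or above the floor that were higher in SP. They were 0 of 9 IL6 family genes, 0 of 20 other pathway genes and 1 of 19 STAT3 targets, against 1, 2 and 5. The share of all genes there was 0.609% at 2-fold and 3.10% at 1.5-fold. In these counts IL6 was the mean of its probe sets, whereas its brighter probe set alone was 2.55-fold higher in SP. No other setting moved these counts by over 1.5 times, and the counts of genes lower by that margin stayed at 0 in all 3 lists under every setting run. The family's median difference ran from 0.24, with both arrays required to reach the floor, to 0.32 after centring, and was 0.25 without IL6. A tolerance of 0.1 on the log2 scale was used for values, since there is no spread between replicates to use. Of 42 differences of single family genes recomputed under an alternative, 38 moved by less, 3 moved by more and 1 changed sign. The 3 were all IL6, at 1.35 with its brightest probe set or with that probe set alone and at 0.06 with its other probe set alone. OSMR changed sign, at 0.0045 with the lowess trend removed, and the cause was not tested. No paired analysis was possible because each population has 1 array. Dim probe sets, such as LIF and the second IL6 probe set, have no measure of detection here.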

Other observations

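Receptor genes of other cytokines that signal through JAK kinases were looked up after the family's values were seen, and the genes named here were picked after their own values were seen. Of 24 listed, 18 were measured, with 9 higher and 9 lower in SP, beside 49.2% of all genes higher. Their median difference was 0.01. Of the 8 at or above the floor none differed by 1.5-fold. Of all genes there 3.10% were higher and 1.43% lower in SP by that margin, so none of 8 is close to these shares. IFNGR1, a chain of the interferon gamma receptor, had 9.22 in SP and 8.78 in NSP (1.36-fold), while IFNGR2, its partner, had 9.19 in SP and 9.32 in NSP. IFNAR2, a chain of the type I interferon receptor that lay under the floor, differed by -0.32. A probe set shared by IFNAR2 and IL10RB, which entered no count, had 7.81 in SP and 8.33 in NSP. IL4R had 8.40 in SP and 8.10 in NSP, and IL7R, under the floor, differed by -0.23. PRLR and GHR, the receptor genes for prolactin and growth hormone, differed by 0.24 and -0.11. IL20RB, under the floor, had 6.39 in SP and 5.74 in NSP (1.56-fold). Of 7 other cytokine ligand genes measured, CSF3, which encodes the granulocyte growth factor, alone reached the floor, at 8.51 in SP and 8.37 in NSP. IL7, under the floor, differed by -0.24.

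Some probe sets shared by several genes also concern the pathway and entered no count. Besides the serum amyloid probe set described among the STAT3 targets, a second probe set annotated to SAA1 and SAA2, under the floor, had 4.84 in SP and 4.66 in NSP. The pair of probe sets shared by STAT5A and STAT5B differed by -0.34 and -0.04, both under the floor. A probe set shared by ADAM17, the protease that sheds IL6R, and IAH1 had 9.24 in SP and 8.89 in NSP. These genes cannot be told apart in such values.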
